A study of Mus musculus with 2 samples.

Results

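CHD2 peaks that lay far from protein-coding starts and yet in CpG-island-like sequence were described here as a group. They were chosen from the deposited mm9 list of 4613 peaks. A peak was kept when its summit lay more than 10 kb from every start of a protein-coding transcript in GENCODE M1. The 501 bp around the summit also had to reach a GC fraction of 0.5 and a CpG observed/expected ratio of 0.6. The rule kept 65 of 1721 distal peaks (3.78%), and they are called distal island peaks here. The 1656 other distal peaks were the contrast, and 1622 island-like peaks within 1 kb of a coding start (promoter peaks) served as a second one. The rule read position and base composition only, so the signal of a peak, its motifs, its place relative to other starts and its values in each replicate were not used to choose it.

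The peaks came from chromatin immunoprecipitation with an antibody to CHD2, followed by sequencing, in ES-E14, a male embryonic stem cell line of mouse strain 129/Ola. There were 2 biological replicates in 1 group, with no treatment or altered genotype in the labels. The mm9 list was made from both replicates together, so it holds no value per replicate. The signal was taken as the authors deposited it, without a stated normalization, and the number of reads behind it is unknown.

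CHD2 is an ATP-dependent chromatin remodeller with chromodomains that bind methylated histone tails and a helicase domain that moves nucleosomes. CpG islands are stretches in which CpG has not been lost through methylation, and most of them cover gene starts. Islands away from annotated coding starts, often called orphan islands, can hold starts of non-coding RNAs, alternative starts of coding genes or regulatory elements that are active in particular cell types.

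The sequences at the summits of the 15 strongest distal island peaks are shown first. Each held CCAAT or CTCGCG, 2 short motifs to which the later counts refer. Gm36220, a weaker peak at a non-coding start, is added because several motifs lay close together there. Each is the plus strand of mm9, 5′ to 3′, with 50 bases on each side of the summit. Capitals mark matches to any of 19 motifs searched on both strands, and to CTCGCG, the 6 letters that follow the first T of the 10-letter palindrome that Zbtb33 binds. CTCGCG reads CGCGAG on the other strand, and it was chosen after the sequences were seen. A first set held CTCGCG and no CCAAT, the box bound by NF-Y.
Myoz1 locus, chr14:21460183-21460283: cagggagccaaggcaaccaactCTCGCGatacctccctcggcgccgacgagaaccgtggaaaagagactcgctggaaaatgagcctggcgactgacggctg
5430416N02Rik start, chr5:100858636-100858736: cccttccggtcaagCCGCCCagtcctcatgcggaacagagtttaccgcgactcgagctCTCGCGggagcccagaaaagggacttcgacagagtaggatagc
Glce start, chr9:61970461-61970561: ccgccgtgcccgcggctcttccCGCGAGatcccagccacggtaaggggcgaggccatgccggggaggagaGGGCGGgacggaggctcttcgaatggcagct
Fbxl5 intron, chr5:44199382-44199482: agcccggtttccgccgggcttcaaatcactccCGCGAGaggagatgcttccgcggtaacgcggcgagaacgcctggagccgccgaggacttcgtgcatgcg
Wnt10a locus, chr1:74863540-74863640: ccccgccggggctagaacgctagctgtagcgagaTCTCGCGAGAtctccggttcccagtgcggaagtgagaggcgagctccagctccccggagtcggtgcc
Ankrd9 locus, chr12:112230471-112230571: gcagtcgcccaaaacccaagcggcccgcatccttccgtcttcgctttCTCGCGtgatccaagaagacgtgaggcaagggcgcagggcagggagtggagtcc
A second set held CCAAT, up to 3 times in 101 bases, in either orientation.
Chaserr start, chr7:80703550-80703650: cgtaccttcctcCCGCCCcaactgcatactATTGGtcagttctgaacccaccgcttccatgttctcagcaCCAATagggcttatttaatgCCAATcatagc
Oip5os1 start, chr2:119419924-119420024: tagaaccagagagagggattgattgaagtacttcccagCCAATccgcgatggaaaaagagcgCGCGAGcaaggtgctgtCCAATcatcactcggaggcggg
Zfp541 locus, chr7:16633603-16633703: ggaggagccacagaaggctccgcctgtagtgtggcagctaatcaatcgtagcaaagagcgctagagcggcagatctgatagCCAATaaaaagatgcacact
4932412D23Rik start, chr16:42875665-42875765: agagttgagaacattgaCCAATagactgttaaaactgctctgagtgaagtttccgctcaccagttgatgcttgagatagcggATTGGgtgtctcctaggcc
Prrc2b locus, chr2:31993518-31993618: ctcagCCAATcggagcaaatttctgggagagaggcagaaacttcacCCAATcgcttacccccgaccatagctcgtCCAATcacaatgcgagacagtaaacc
Tnrc6b start, chr15:80541572-80541672: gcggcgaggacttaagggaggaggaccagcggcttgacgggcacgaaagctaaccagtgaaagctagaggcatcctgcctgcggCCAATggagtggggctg
Gm36220 start, chr11:106362094-106362194: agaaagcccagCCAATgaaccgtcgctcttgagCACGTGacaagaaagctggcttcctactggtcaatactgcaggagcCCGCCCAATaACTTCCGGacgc
The last set consisted of 3 near-copies of each other on chromosome 4, at pseudogenes that GENCODE M1 lists as Gm13034, Gm13135 and Smarca5-ps.
Gm13034 locus, chr4:146034712-146034812: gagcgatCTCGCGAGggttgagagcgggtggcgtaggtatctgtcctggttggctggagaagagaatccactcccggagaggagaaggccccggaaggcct
Gm13135 locus, chr4:146649638-146649738: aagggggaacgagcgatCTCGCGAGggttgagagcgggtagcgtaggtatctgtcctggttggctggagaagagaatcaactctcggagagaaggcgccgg
Smarca5-ps locus, chr4:145053737-145053837: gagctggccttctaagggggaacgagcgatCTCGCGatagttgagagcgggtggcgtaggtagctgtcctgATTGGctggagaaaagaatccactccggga

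Distal island peaks had a higher median signal than the other distal peaks, and one close to that of the promoter peaks. Their median signal was 65.7 (95% interval from order statistics 54.4 to 85.4, n = 65), with a range of 32.8 to 447. The other distal peaks had a median of 44.3 (43.4 to 45.3, n = 1656) and the promoter peaks one of 72.5 (68.0 to 76.8, n = 1622). The median of the distal island peaks was thus 1.48 times that of the other distal peaks. Among the 461 strongest peaks of the mm9 list (10%) were 8 of the 65 (12.3%, exact Clopper-Pearson 95% interval 5.47 to 22.8), against 29 of the other distal peaks (1.75%, 1.18 to 2.51) and 2.15% of all distal peaks. Of the 1622 promoter peaks, 323 were among them. The upper quartile of signal was 123 in the distal island peaks and 147 in the promoter peaks. All intervals given here cover the counting error of peaks only, since peaks are not replicates, and no test over peaks was made. Within the group, signal hardly followed composition. Spearman's rho over the 65 peaks was 0.17 with the CpG ratio, 0.19 with GC and -0.02 with the distance to the nearest coding start, given as descriptions of peaks from 1 pooled list.

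The highest signal, 447, belonged to a peak between genes on chromosome 14 (mm9, 21460100 to 21460399), at rank 128 of the whole list. Its summit lay 15529 bp downstream of the start of Myoz1, which encodes a protein of the muscle sarcomere. It had no annotated start within 1 kb in either annotation used. In the list of replicate 1 this peak ranked 158 with a signal of 135, and in the list of replicate 2 it ranked 219 with 104. Next came a peak of signal 386 on chromosome 5 (100858483 to 100858834) at the start of the long non-coding gene 5430416N02Rik, 132 bp upstream of the RefSeq start. It ranked 147 in replicate 1 (signal 138) and 280 in replicate 2 (92.7). Both peaks thus stood near the top of the 300000 peaks of each replicate's own list. The third, of signal 332 (chromosome 9, 61970344 to 61970658), lay 52098 bp from the nearest coding start of GENCODE M1, that of Glce, an enzyme of heparan sulfate synthesis, but 95 bp upstream of the RefSeq start of the same gene.

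The next peaks were of mixed surroundings. The peak at the pseudogene Gm13034 had a signal of 305 (chromosome 4, 146034548 to 146034838). A peak of 257 (chromosome 5, 44199309 to 44199573) lay in an intron of Fbxl5, an F-box protein of iron metabolism, 10700 bp upstream of Bst1. A peak of 214 (chromosome 1, 74863430 to 74863718) lay 25500 bp from the start of Wnt10a, a secreted Wnt ligand, and its joined mm10 summit was 171 bp from an end of the tRNA gene n-TGgcc3. The peak near Chd2 itself had a signal of 202 (chromosome 7, 80703488 to 80703730) and lay 319 bp upstream of the RefSeq start of Chaserr, a long non-coding RNA gene that adjoins Chd2. A peak of 196 (chromosome 2, 119419858 to 119420064) lay 58 bp upstream of Oip5os1, the long non-coding RNA also known as Cyrano. The remaining members of the 15 strongest ran from 184 at the Zfp541 locus to 145 at Smarca5-ps. They included a peak of 166 at 4932412D23Rik, 15 bp from its start and inside the span of that non-coding gene, one of 164 near Ankrd9, one of 157 near Prrc2b and one of 151 at Tnrc6b, a component of RNA silencing. The Zfp541 locus peak lay, after joining to mm10, 158 bp from an end of Bicra, a subunit gene of a chromatin remodelling complex.

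**Figure D1:**
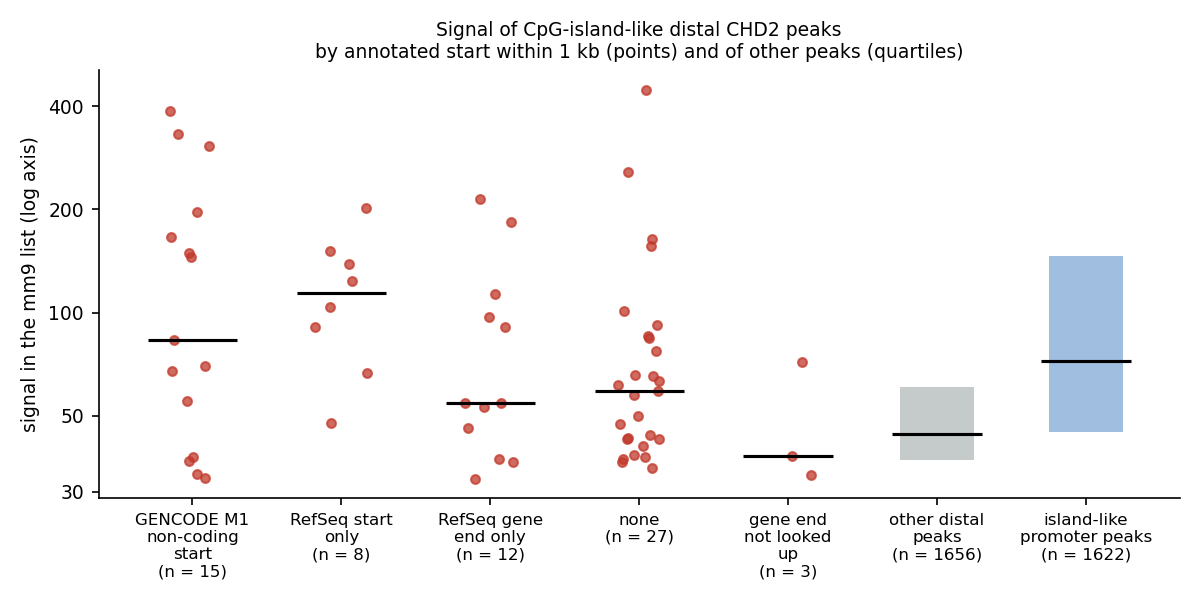
Signal in the mm9 list on a log axis, with 1 point per distal island peak, grouped by the annotation within 1 kb (3 peaks with no start could not be looked up for a gene end), a black line at each median, and boxes over the middle 50% of values for the other 2 groups of peaks. Peaks with a GENCODE M1 non-coding start or a RefSeq start had a median of 104, and the strongest peak of all, at 447, had neither.

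Annotated starts were found at distal island peaks more often than at other distal peaks. A non-coding transcript start of GENCODE M1 lay within 1 kb of 15 of 65 summits (23.1%, 13.5 to 35.2), against 42 of 1656 (2.54%, 1.83 to 3.41) and 3.31% of all distal peaks. Non-coding here meant any gene not typed as protein-coding, so pseudogenes and small RNA genes counted too. The Glce peak was counted through a microRNA start. The 4932412D23Rik peak was counted as well, and its joined mm10 summit lay 94 bp from an end of the coding gene Zbtb20. RefSeq starts were located on mm9 by an exact match of 100 bases from a table of 32851 RefSeq promoter sequences of GRCm38. They lay within 1 kb of 20 of the 65 (30.8%, 19.9 to 43.4), against 67 of the others (4.05%, 3.15 to 5.11) and 5.06% of all distal peaks. With both annotations, 23 of the 65 had a start (35.4%, 23.9 to 48.2), against 119 of the others (7.19%, 5.99 to 8.54) and 8.25% of all distal peaks. The 65 peaks thus split into 23 with an annotated start and 42 without one.

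The label distal did not hold for every peak in the newer annotation. A RefSeq coding start lay within 1 kb of 6 of the 65 summits (9.23%, 3.46 to 19.0), against 20 of the others (1.21%, 0.739 to 1.86) and 1.51% of all distal peaks. These were Glce, Gatad2b, Zfp810, BC024063 and Tnrc6b, of which the last held 2 peaks 894 bp apart. Gatad2b encodes a subunit of the NuRD deacetylase complex, and its peak had a signal of 138. By the nearest end of any RefSeq gene on mm10, which is given without strand, 6 more peaks lay within 1 kb of a coding gene. A coding end behind a nearer non-coding one was not counted. Pdzd7, Extl3 and Arhgap5 were among these, with signals of 97.4, 90.7 and 46.1. In all, at least 12 of the 65 were near a coding start or end in RefSeq. Ends could be looked up for the 60 peaks joined to mm10 only. The share near a coding gene end is not given here for the other distal peaks, so the 12 cannot be set against a background. Without the 6 peaks at RefSeq coding starts, and the same done for the other distal peaks, the ratio of median signals was 1.43 (n = 59).

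Where a RefSeq start was found, the summit lay close to it and mostly upstream. It was within 150 bp in 16 of 20 cases, upstream of the start in 17 and downstream in 3. The whole 300 bases of the promoter sequence matched in all 20. Of these, 14 were starts of long non-coding RNA genes. The same counts are not given here for the other groups, so they describe the distal island peaks only. Gm36220 had a signal of 69.7 with the summit 85 bp upstream, in a locus with the small nucleolar RNA gene Snord104. The peak at 4833417C18Rik, of signal 67.5, lay 9 bp upstream. Snhg5 and Dancr, long non-coding RNA genes that host small nucleolar RNAs, had signals of 38.0 and 36.8 with summits 74 and 26 bp upstream. Gm26901, a start 231582 bp from the nearest coding gene (Pcmtd1), had 83.0 with the summit 53 bp downstream. At C920006O11Rik, where GENCODE M1 also lists a start under the name of the small nuclear RNA 7SK, the signal was 55.3, and the summit lay 135 bp upstream. AU020206 had 104. Non-coding starts therefore spanned nearly the whole range of signal in the group, from 386 at 5430416N02Rik to 32.8 at Gm10433.

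Peaks at a start had the higher median signal within the group. The 23 peaks with a start in either annotation had a median signal of 104 (66.5 to 151), and the 42 without had one of 55.9 (44.0 to 72.0). Among the other distal peaks the same split gave 45.8 (42.1 to 51.8, n = 119) and 44.2 (43.3 to 45.2, n = 1537). The 2 intervals overlapped within each group of peaks. The distal island peaks with no annotated start still had the higher median of the 2 groups without a start, with intervals that also overlapped. The difference in these splits between the 2 groups was not tested.

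A second view of the same loci came from mm10, where each peak was joined to the deposited optimal list through its distance from the same end of the same gene. An end of any RefSeq gene lay within 1 kb of the joined summit for 33 of 60 joined peaks (55%, 41.6 to 67.9), against 137 of 1459 (9.39%, 7.94 to 11) and 11.2% of all joined distal peaks. For all 18 peaks that had both a RefSeq start and a joined optimal peak, the start and the gene end led to the same mm10 peak. At some of them, such as 5430416N02Rik and C920006O11Rik, both belonged to the same gene, so the 2 routes were not independent there. Beside the 15 peaks at a GENCODE M1 non-coding start and 8 at a RefSeq start only, 12 had a RefSeq gene end only and 27 had none of these. For the other 3, near Cacng6, Mga and Gm9953, no optimal peak was joined and a gene end could not be looked up. Among the 12 were peaks near the tRNA genes n-TGgcc3 and n-TNgtt14, with signals of 214 and 32.8. Of the 27, 20 lay between genes.

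Most distal island peaks lay between genes and not far beyond the distance limit. In GENCODE M1, 52 of 65 summits were between genes (80%, 68.2 to 88.9), against 60.6% of the other distal peaks (58.2 to 62.9) and 61.3% of all distal peaks. Introns of protein-coding genes held 5 of them (7.69%, 2.54 to 17.0), against 35.3% (33.0 to 37.6) and 34.2% of all distal peaks. A further 3 lay in exons and 5 in other genes. The median distance to the nearest coding start was 24837 bp (17576 to 32541), against 37408 bp (35697 to 40506). Within 50 kb of a coding start were 55 of them (84.6%, 73.5 to 92.4), against 60.3% (57.9 to 62.6) and 61.2% of all distal peaks. The 5 farthest lay near Cbln4 at 500474 bp, Tab2 at 251276 bp, Pcmtd1 at 231582 bp, Fam19a4 at 183110 bp and Gm9953 at 109416 bp, with signals of 84.1, 38.4, 83.0, 58.9 and 33.6. Of the 65 summits, 38 were upstream and 27 downstream of that nearest start.

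The CpG-rich stretch around the summit was island-sized and nearly as dense as at promoters. Inside the 501 bp used by the rule, the 65 peaks had a median of 33 CpG, against 6 in the other distal peaks and 39 in the promoter peaks. These counts describe the choice. Outside that window, 500 to 600 bp downstream on the plus strand, the mean density was still 4.77 CpG per 100 bp, against 1.14 in the other distal peaks and 4.57 in the promoter peaks. It was 3.18, 1.18 and 4.53 at the same distance upstream. By 1200 to 1300 bp downstream it had reached 1.02, where the other distal peaks stood at 1.04 and the promoter peaks at 1.61.

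**Figure D2:**
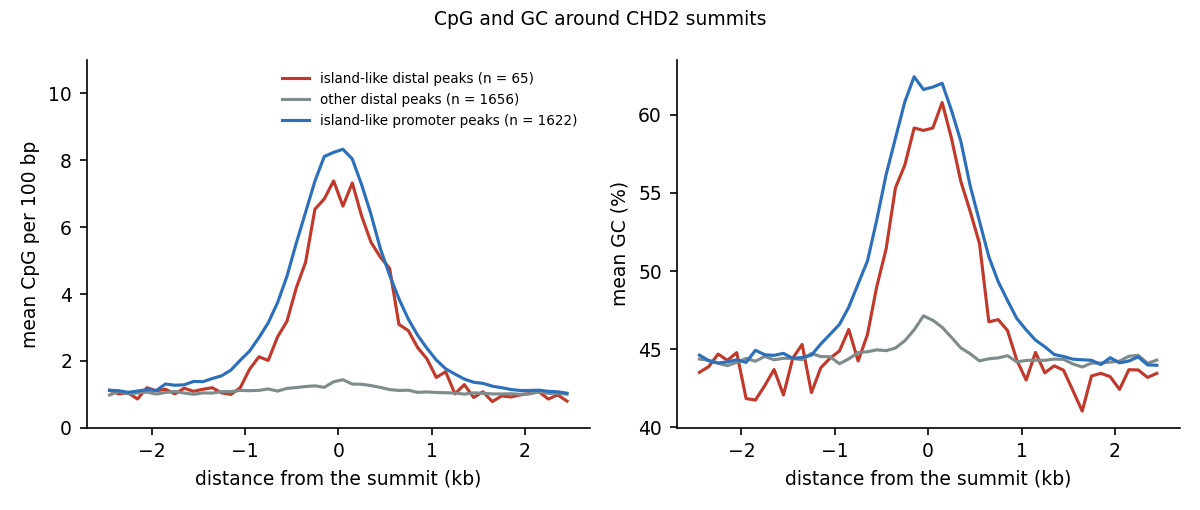
Mean CpG per 100 bp (left) and mean GC in percent (right) in bins of 100 bp against the distance from the summit in kb, 1 line per group of peaks. The distal island peaks rose to 7.38 CpG per 100 bp just upstream of the summit, while the other distal peaks stood at 1.38 there and the promoter peaks reached 8.33.

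The 10 peaks of highest CpG ratio had signals from 38.0 to 447. The ratio was 1.12 at Snhg5 (Zfp949 locus, signal 38.0), 1.06 at the Myoz1 locus (447), 1.03 near Morn3 (92.2), 1.03 at 1 of the 2 Calcoco1 peaks (40.8) and 1.02 near Mga (38.1). It was 1.01 at Prdm2, a histone methyltransferase gene with the peak in an intron (44.0), 1.01 at Arhgap5 (46.1), 0.989 near A830005F24Rik (77.2), 0.935 near Foxk1 (54.4) and 0.924 at Chaserr (202). At the edges of the rule, the lowest GC values inside were 50.1% near Calcoco1 and 50.3% at both the Gsta4 and Slc24a1 loci, and the nearest outside were 49.7% near Mkrn3 and 49.5% near Olfr291 and BC032203. The lowest CpG ratios inside were 0.6001 near Zfp715, 0.607 near Slc24a1 and 0.614 near Cbln4, and the nearest outside were 0.598 near BC107364, 0.589 near BC002059 and 0.588 near Col22a1. Signals of these edge peaks overlapped, with 37.4 to 84.1 inside and 36.1 to 77.6 outside.

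CpG-island-like sequence away from coding starts held a summit more often than other distal sequence, although most of it held none. Of 4195227 distal tiles of 501 bp across the mm9 genome, 10439 met the composition rule (0.249%). A CHD2 summit lay in 56 of these (0.536%, 0.405 to 0.696), against 1658 of the other 4184788 distal tiles (0.0396%, 0.0377 to 0.0416) and 0.0409% of all distal tiles. Tiles have fixed edges, so this number differs from 65.

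CCAAT was the most frequent of the 19 motifs at distal island peaks. Within 50 bp of the summit it was present in 32 of 65 (49.2%, 36.6 to 61.9), against 27.2% of the other distal peaks (25.1 to 29.4), 47.7% of the promoter peaks (45.2 to 50.1) and 28.1% of all distal peaks. In 2 windows of the same length centred 500 bp to each side of the same summits, the share was 6.92% (9 of 130 windows). The centres of island-like distal tiles without a summit held it in 19.4%. There were 16 peaks with at least 2 matches, a count not given here for the other groups, and Chaserr, Prrc2b and Gatad2b each had 3. The nearest match lay a median of 18 bp from the summit over the 43 peaks with one within 250 bp. The motif was thus more frequent at the summit than in the flanks, although 33 of the 65 had no match within 50 bp. Flanking windows held it in 13.2% for the other distal peaks and 10.5% for the promoter peaks, also below their summits. This was therefore not particular to the distal island peaks. Median signal was 68.6 with CCAAT (49.9 to 90.5) and 61.3 without (42.8 to 101), with intervals that overlapped. In the other distal peaks it was 50.02 (47.3 to 53.1) and 43.0 (42.0 to 43.7), and these intervals did not overlap.

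**Figure D3:**
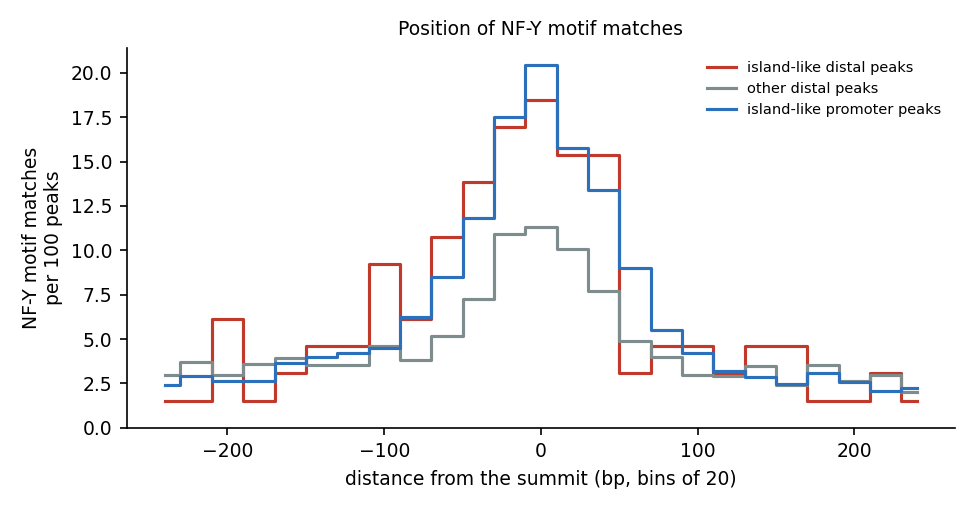
Matches to the NF-Y motif per 100 peaks in bins of 20 bp, against the distance from the summit in bp, for the 3 groups of peaks. The central bin held 18.5 matches per 100 distal island peaks, 11.3 in the other distal peaks and 20.5 in the promoter peaks.

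GGGCGG, the GC box bound by Sp factors, was present in 16 of 65 (24.6%, 14.8 to 36.9), against 3.08% of the other distal peaks (2.30 to 4.03), 30.7% of the promoter peaks (28.5 to 33.0) and 3.89% of all distal peaks. Its letters are themselves rich in G and C, and tiles without a summit held it in 14.8%. The flanking windows held it in 11.5%. The share rose with the window, to 40% within 100 bp, and fell to 6.15% within 25 bp. There were 10 peaks with both CCAAT and GGGCGG, among them Chaserr, Gm36220 and Dancr, and 38 had at least 1 of the 2. These joint counts are not given here for the other groups, so they describe the distal island peaks only.

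The whole Zbtb33 palindrome, which is in capitals in the Wnt10a locus sequence, was found at 2 of 65 summits (3.08%, 0.375 to 10.7), those near Wnt10a and Nap1l2, against 0.362% of the other distal peaks (0.133 to 0.787), 8.45% of the promoter peaks (7.14 to 9.91) and 0.465% of all distal peaks. CTCGCG, the 6 letters after the palindrome's first T, is called the core here, although it is not the palindrome's centre. A match to it alone is not a match to the palindrome. The core was present in 26 of 65 (40%, 28.0 to 52.9), against 40 of the 1656 other distal peaks (2.42%, 1.73 to 3.27), 36.7% of the promoter peaks (34.3 to 39.1) and 3.83% of all distal peaks. Flanking windows of the distal island peaks held it in 5.38%, and island-like tiles without a summit in 3.19%. A match to the palindrome always holds the core, so the 2 counts share peaks. The core holds 2 CpG, and the other distal peaks have few CpG by the rule that separates the groups, so the low shares of core and palindrome there are not independent of the rule. The share of the core here was close to that at promoters, and above that of island-like tiles without a summit, which meet the same rule. Those tiles are not a matched background, here or for CCAAT and GGGCGG. Their centres are set by fixed edges and need not lie in the middle of an island. The Yy1 motif AAGATGGCG was in 6.48% of them, against 0% of the distal island peaks and 0.986% of the promoter peaks. The core was chosen after sequences of these summits were seen. Its higher share at them than in flanks and tiles is therefore not independent of that choice.

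CCAAT and CTCGCG were also counted together in each group of peaks. Of the 65, 50 held at least 1 of them, 8 held both and 15 held neither. Of the 1622 promoter peaks, 1257 held at least 1, 111 both and 365 neither. Of the 1656 other distal peaks, 481 held at least 1, 10 both and 1175 neither. The pattern was thus not particular to the distal island peaks. CTCGCG was present in 18 of the 33 peaks without CCAAT (54.5%, 36.4 to 71.9) and in 8 of the 32 with it (25%, 11.5 to 43.4), and these intervals overlapped. Among the 20 peaks of signal 100 or more, 12 held CTCGCG (60%, 36.1 to 80.9), and among the other 45, 14 did (31.1%, 18.2 to 46.6). Median signal was 91.4 with CTCGCG (54.4 to 164, n = 26) and 61.3 without (44.0 to 77.2, n = 39). Promoter peaks showed the same order, with the core in 78.6% of the 323 among those 461 strongest peaks and in 26.3% of the other 1299. All of these splits were made after the sequences were seen, and the intervals of the distal island peaks overlapped.

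**Figure D4:**
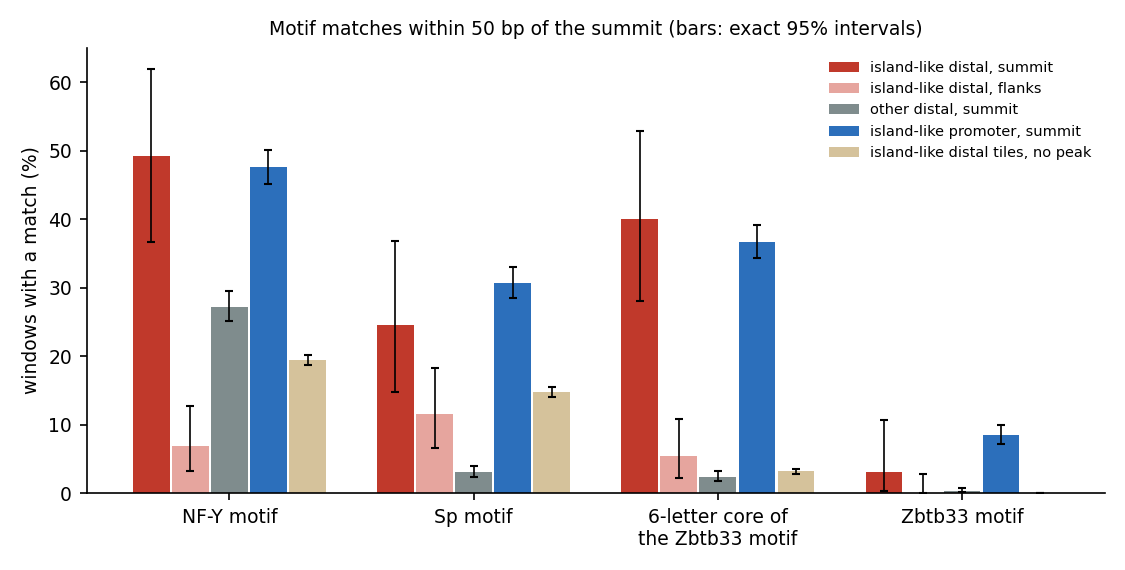
Percent of windows of 101 bp with a match to each of 4 motifs, at the summit and in the flanks of distal island peaks, at the summits of the other 2 groups, and at the centres of island-like distal tiles without a peak. Thin lines are exact 95% intervals. The core, which here means CTCGCG, stood at 40% at distal island summits and at 36.7% at promoter summits, with 2.42% at the other distal summits.

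The other motifs were rare or not found. The Ets motif CCGGAAGT was at 2 peaks (background of all distal peaks 0.872%), the stronger being Gm36220, the E box CACGTG at 2 (1.51%), also led by Gm36220, and the core of the CTCF motif, led by Foxk1, at 2 (0.93%). TATAAA was at 3 (4.01%), led by C920006O11Rik, and TGACGTCA at 1 (0.174%), a peak of signal 65.7 near A830005F24Rik. The remaining 11 motifs were at none of the 65, with an exact upper 95% limit of 5.52% each. These included the Esrrb motif TCAAGGTCA, the Pou motif ATTTGCAT and the AP-1 motif TGANTCA, which were at 1.87%, 2.42% and 3.74% of the other distal peaks and at 1.8%, 2.32% and 3.6% of all distal peaks. The limit lay above those shares, so a difference of that size was not detectable with 65 peaks. A match here is a string of letters and not a measured site.

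Few of the nearest coding genes were in the 7 gene lists examined. Pax2, a transcription factor of kidney and eye development, was the nearest gene of 1 peak (signal 42.8; developmental regulators, 0.581% of all distal peaks). Wnt10a was the nearest of 1 (signalling, 0.291%), and Chd2 of 1 (chromatin and DNA methylation, 0.407%). The pluripotency list (0.872%), the immediate early and ERK list (0.465%), the imprinted list (0.232%) and the list of fibroblast markers (0.0581%) had none, with the same upper limit.

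Some distal island peaks shared their sequence. Over most of their 501 bp, 6 of the 65 formed 2 sets of 3 near-copies, by local alignment with at least 80% identity, a limit chosen after the values were seen. The first set was the 3 pseudogene loci of chromosome 4, with identities of 92.8% to 94.7% and signals of 305, 150 and 145. The second set lay near Nap1l2 on chromosome X, Cbln4 on chromosome 2 and in an intron of Fam19a4 on chromosome 6, with identities of 85.5% to 90.1% and signals of 85.4, 84.1 and 58.9. All 6 held CTCGCG, so their matches are not separate observations of it. With 1 peak of each set, CTCGCG was at 22 of 61 (36.1%, 24.2 to 49.4), CCAAT at 29 of 61 (47.5%, 34.6 to 60.7), and the ratio of median signals to the other distal peaks was 1.47. The 20 CTCGCG peaks outside the sets had a median signal of 81.6. The central 51 bases occurred once in the mm9 genome for 64 of the 65 peaks and 3 times for the one near Zfp715.

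In the replicates' own lists, distal island peaks were found about as often as other distal peaks and ranked higher. A peak was joined in both replicates for 62 of 65 (95.4%, 87.1 to 99.0), against 94.6% of the other distal peaks (93.4 to 95.6) and 94.6% of all distal peaks. In replicate 1 the median signal was 27.9 (20.2 to 38.3, n = 63), against 18.5 (17.96 to 18.98, n = 1604). In replicate 2 it was 25.9 (19.4 to 33.6, n = 63), against 19.3 (18.65 to 20, n = 1595). The ratio was thus 1.51 in replicate 1 and 1.34 in replicate 2, and 1.48 in the optimal list (n = 60). Both replicates placed the distal island peaks higher, at a median rank of 1768 in replicate 1 and 1993 in replicate 2, where the other distal peaks had 3300.5 and 3169. Among the 8282 strongest peaks of both replicates, a number equal to the optimal list, were 52 of the 65 (80%, 68.2 to 88.9), against 68.5% (66.2 to 70.8) and 69% of all distal peaks. The intervals of the medians did not overlap in replicate 1, but those of replicate 2 did, and so did the intervals of these last shares.

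The order of the peaks was also closer between replicates. Spearman's rho between the signals of the replicates was 0.65 over 62 distal island peaks and 0.33 over 1566 other distal peaks. These are descriptions over peaks of the same 2 libraries, and the part of the wider range of signal in this difference was not tested. The 4 strongest joined peaks without a near-copy, at Myoz1, 5430416N02Rik, Glce and Fbxl5, ranked between 147 and 264 in replicate 1 and between 219 and 326 in replicate 2. Wnt10a ranked 302 and 771, Chaserr 382 and 619, and Oip5os1 521 and 599. The Zfp541 locus peak went the other way, at 678 and 371, as did 4932412D23Rik at 702 and 472.

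The largest rank differences belonged to weaker peaks, each better placed in replicate 1. The peak near Pard6b, a cell polarity gene, ranked 2457 in replicate 1 and 17349 in replicate 2, with signals of 22.5 and 8.32. The one near 1700129C05Rik ranked 1082 and 15171, with 40.6 and 8.80. The one near Fam19a4 ranked 2293 and 15506, with 23.6 and 8.72. Over the 62 peaks, 37 were better placed in replicate 1 and 25 in replicate 2, and the median difference was 892 places.

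**Figure D5:**
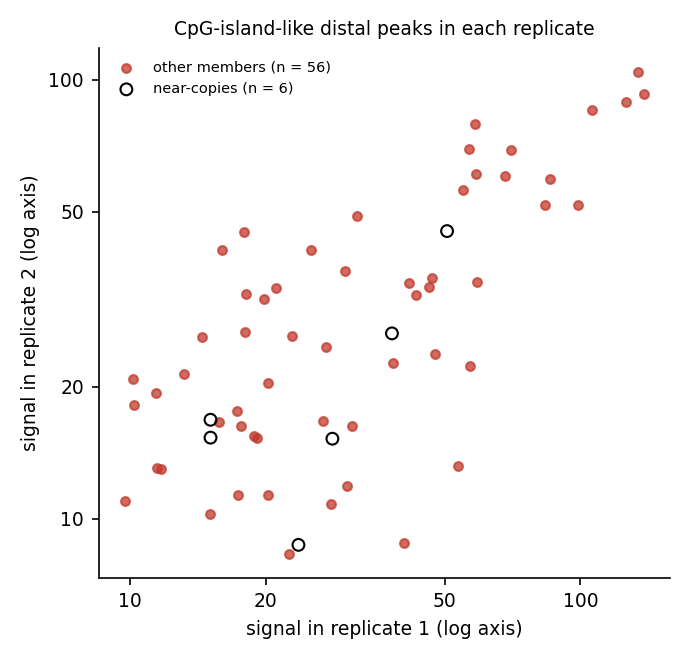
Signal of each distal island peak in the list of replicate 1 against that in the list of replicate 2, on log axes, for the 62 peaks joined in both, with the 6 near-copies as open circles. Strong peaks were strong in both lists, up to 138 in replicate 1 and 104 in replicate 2, and the weak ones spread widely.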

How the data were processed

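The data were 2 biological replicates of CHD2 ChIP-seq in ES-E14 cells. Per the deposited descriptions, the mm9 list and the mm10 optimal and conservative lists were derived from both replicates, and each replicate also had a relaxed mm10 list of 300000 peaks. The optimal list held 8282 peaks and the conservative list 7530. Signal values were used as deposited, with no stated normalization. Levels were compared within a list only, and between the replicates' lists only their order was compared, although both levels are printed and plotted side by side. A −log10 q-value per peak was also deposited and entered no comparison. The peak caller, the aligner, filters and control handling were not given in the sources used here, and they can shift every signal and count. Read depth is unknown. All 4613 mm9 peaks ended inside their chromosomes of the mm9 genome used. Where nothing says that the replicates came from separate cultures, their spread may be technical.

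The summit was the list's own offset. Starts came from GENCODE M1 on mm9, and from RefSeq promoter sequences (GRCm38.p6, 250 bases before and 50 after a start) by exact match of their last 100 bases on the same chromosome. Coordinates were never moved between builds. An mm9 peak was joined to the strongest mm10 peak at the same distance, within 200 bp, from the same end of the same gene, each measured in its own build, using genes whose lengths agreed within 100 bp. Motif matches were exact, on both strands, within 50 bp of the summit. Members, gene lists and motifs were chosen with earlier results of these data known. Named peaks were the 15 strongest, the 10 of highest CpG ratio, the 5 farthest, up to 10 at non-coding starts, the strongest per gene list and motif, those next to each threshold, and the 10 strongest joined peaks with the 3 largest rank differences. Others (the peaks at RefSeq coding starts and gene ends, Snhg5, Dancr, Gm10433, AU020206, Gm26901 and the near-copies) were chosen after their values were seen. A peak is called by its nearest start or gene. Shares carry exact Clopper-Pearson and medians order-statistic 95% intervals, checked on simulated data. Python 3.11.15, numpy 2.4.6, pandas 2.3.3, scipy 1.17.1, Biopython 1.88 and matplotlib 3.10.9 were used. Alternatives to the rule, windows, distances and lists were tried.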

Additional observations from a re-analysis of the deposited data

How the results depend on the processing

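The number of distal island peaks depended on the rule. It was 41 with GC of at least 0.55 and a CpG ratio of at least 0.65, 10 at over 50 kb from a coding start and 42 among the 50% of the list with the higher signal. Under the other 5 settings of the rule and the 2 settings added after the data were seen (1 of each set of near-copies, and no RefSeq coding start within 1 kb) it ran from 55 to 89. The ratio of median signals stayed above 1 under all of these, from 1.31 to 1.90, but with 10 peaks its interval began at 0.873. In the mm10 lists it was 1.34 without replicate 1 and 1.51 without replicate 2. The mm9 list pools both replicates, so neither could be left out of it. The share with GGGCGG was 6.15% within 25 bp and 40% within 100 bp, and that with CTCGCG was 21.5% and 41.5%. The cause was not tested. Of 62 alternatives in all, 56 stayed inside the 95% interval of the main value or, for counts of peaks, within 1.5 times of it. No paired analysis was possible because there was only 1 group. Depth is unknown and 65 peaks set the precision, so the 95% interval of anything found at none of the 65 reached up to 5.52%.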

Other observations

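The near-copies were placed lower in the mm10 lists than in the mm9 list, a pattern noticed after the values were seen. Among the 60 distal island peaks with a joined optimal peak, the 6 near-copies lost 9 to 28 places between the mm9 order and the optimal order, with a median of 18. The other 54 ranged from a gain of 11 places (-11) to a loss of 12. The peak near Gm13051 went from place 4 to place 14, the one near Gm13151 from place 14 to place 39, the one near Cbln4 from 26 to 54 and the one near Nap1l2 from 25 to 51. How each alignment placed reads from near-identical copies is not given in the sources used here, and its part in the difference was not tested.

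The 27 peaks with no start and no RefSeq gene end within 1 kb had a median signal of 58.9 (42.8 to 84.1) and ranged up to 447 at the Myoz1 locus, 257 in the Fbxl5 intron, 164 near Ankrd9 and 157 near Prrc2b. A pair of neighbouring summits near A830005F24Rik, 630 bp apart and with the GC of 72.5% and 73.3% that was the highest of the group, had signals of 77.2 and 65.7. Both ranked far better in replicate 2 (969 and 1089) than in replicate 1 (3491 and 4221). On mm10 they lay 8314 and 7675 bp from an end of the microRNA gene Mirlet7a-1.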
